A study of Mus musculus with 6 samples.

Results

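The clustered (replication-dependent) histone genes of the mouse genome were followed in embryonic stem cells after an antisense oligonucleotide against LINE1, the long interspersed retrotransposon family. Members were all gene symbols that begin with Hist1h, Hist2h, Hist3h or Hist4h, and 60 of the 19467 symbols in the gene table met this rule. By symbol they belong to the linker histone H1 (6 genes) and the core histones H2A (14), H2B (17), H3 (12) and H4 (11). Hist3h2bb-ps, counted with H2B, is annotated as a processed pseudogene. In the GENCODE M21 annotation 48 members lie in the Hist1 cluster on chromosome 13, 8 in Hist2 on chromosome 3, 3 in Hist3 on chromosome 11, and 1 in Hist4 on chromosome 6. The cells were E14Tg2A, a mouse embryonic stem cell line grown in serum with leukaemia inhibitory factor. Each sample received 5 nmol of a Lissamine-tagged oligonucleotide (ASO) by nucleofection, either the control labelled RC or the one against LINE1, and 300000 fluorescent cells were sorted 48 h later. Each arm had 3 libraries. All cells of both arms were therefore electroporated, carried an oligonucleotide and passed the fluorescence sort, and no untreated cells were analysed here.

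Replication-dependent histone genes supply the protein that packages new DNA, and their transcription is tied to S phase. Their mRNAs as a rule have no introns and no poly(A) tail. They end a few bases after a short stem-loop that the stem-loop binding protein holds and that U7 snRNA-guided cleavage leaves at the 3′ end. Some of these genes also make longer transcripts that run past the stem-loop to an ordinary poly(A) signal, and in mammals such forms are known for Hist1h1c, Hist1h2bc and Hist2h2be. A kit that selects mRNA by its poly(A) tail reports mainly the longer forms, so the values here are reads caught by such a kit and not total histone mRNA.

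Clustered histone genes gave few reads, and 3 of them rose with the LINE1 ASO. In all, 4399 of 164115323 gene-assigned reads fell on the 60 members. They took 0.00189% to 0.00258% of the reads of a control library and 0.00282% to 0.00333% of a LINE1 ASO library. The count filter left 17 members to test, of which Hist1h1c, Hist1h2bc and Hist1h4i rose and 0 fell (edgeR quasi-likelihood F test, Benjamini-Hochberg adjusted p under 0.05). The same test called 4.93% of all 14725 tested genes higher and 1.17% lower. At an unadjusted p under 0.05 by edgeR, 5 members were higher and 1 lower, beside 1990 and 1266 of all 14725 tested genes. Of these 5, Hist1h2ac and Hist1h2be reached the count filter in 0 control libraries, so the count of 5 is not read against that share. DESeq2 called Hist1h1c, Hist1h2bc and Hist1h4i higher and 0 members lower, beside 1047 and 585 of all genes. These are bulk libraries, in which a change in the share of cells that make an mRNA and a change in its amount per cell cannot be told apart. No call held without control replicate 1 or without control replicate 3, where the members called were 0. Hist1h2bc alone was called without LINE1 ASO replicate 1 or without LINE1 ASO replicate 3, and Hist1h2bc and Hist1h4i were called without control replicate 2.

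Among the tested members, those that passed the count filter only through their LINE1 ASO libraries had to be higher there. The filter of 0.357 CPM was missed in at least 1 control library by 9 of the 17, and 8 of these 9 had a log2 fold change above 0. The balance of directions over the 17, with 11 above 0 and 6 below, is therefore given as a description only. The filter asks for this level in any 3 libraries, and Hist1h4i reached it in 2 control and 3 LINE1 ASO libraries, so of the 3 called genes only Hist1h1c and Hist1h2bc passed it in all control libraries. CPM are read counts relative to library size, taken as each library's reads on tested genes times its TMM factor. Every LINE1 ASO library lay above every control library for 6 tested members and below for 2, against 16.8% and 11.9% of all tested genes. Of these 6, Hist1h2ac, Hist1h2be and Hist1h3g reached the filter in 0 control libraries and Hist1h4i in 2, so the count of 6 is not read against that share.

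**Figure D1:**
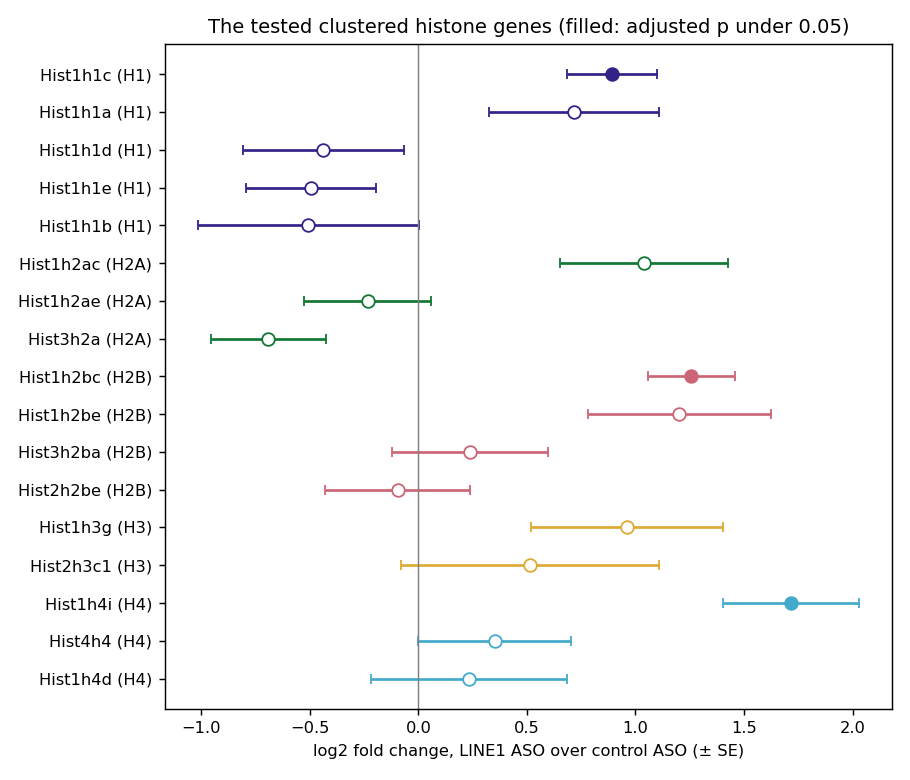
Log2 fold change of LINE1 ASO over control ASO (x axis, whiskers ± 1 SE) for the 17 tested clustered histone genes, grouped by histone class. Filled points passed the test: Hist1h1c at 0.89, Hist1h2bc at 1.26 and Hist1h4i at 1.72.

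The 3′ ends of the annotated transcripts differ between members, and the stem-loops below are shown because they are what sets this mRNA class apart from polyadenylated mRNA. A stem of 6 base pairs with a loop of 4 bases was found in the GENCODE M21 transcripts (GRCm38) of 40 of the 60 members. In 22 of these the 16 bases were the same as in Hist1h1c. Capitals mark the stem-loop, with 5 bases on each side, written 5′ to 3′ on the strand of the gene.
Hist1h1c (chromosome 13, plus strand): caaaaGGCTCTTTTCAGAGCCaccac
Hist1h4i (chromosome 13, minus strand): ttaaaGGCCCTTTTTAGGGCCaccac
Hist3h2a (chromosome 11, plus strand): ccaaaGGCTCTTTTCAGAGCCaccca
Hist1h3g (chromosome 13, plus strand): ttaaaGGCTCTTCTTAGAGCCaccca
The annotated transcript of Hist1h1c ran on for 840 bases past its stem-loop and held the poly(A) signal AATAAA in its last 50 bases. That of Hist1h4i ran on for 330 bases to ATTAAA, and that of Hist3h2a for 1643 bases to AATAAA. Hist1h3g stopped 47 bases past its stem-loop with no such signal. For Hist1h2bc the annotated transcript had 2 exons. No stem-loop was found in it, and no poly(A) signal in its last 50 bases, the only part searched for that signal.

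Reads were found mostly on members whose annotated transcripts run past the stem-loop. The 23 members that end more than 100 bases past it held 2564 reads and 12 of the tested genes. The 17 that end at most 100 bases past it held 445 reads and 1 tested gene, Hist1h3g. The 20 with no stem-loop found held 1390 reads, of which 679 were those of Hist1h2bc. Some of these 20 have short annotated transcripts, such as 312 bases for Hist1h4k and 381 for Hist1h2bl. A missing stem-loop may thus reflect where the annotation ends and does not define a separate kind of histone mRNA. A poly(A) signal in the last 50 bases was present in 15 members, with 2388 reads and 9 of the 17 tested genes. Longer transcripts collect more reads, so these totals do not compare levels. Summed CPM of the 23 longer members was 13.6 ± 1.74 with the control ASO and 17.1 ± 1.89 with the LINE1 ASO, and that of the 17 short ones 2.52 ± 0.458 and 2.91 ± 0.623 (SD, n = 3 each). The arms overlapped for the short members, and those of the longer members did not. The longer set holds the called genes Hist1h1c and Hist1h4i, and the short set holds 0 called genes. No test was made on these sums, so they do not compare long with short 3′ ends.

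Linker histone H1 is represented by Hist1h1c, Hist1h1d, Hist1h1a, Hist1h1b and Hist1h1e among the tested genes, and Hist1h1c, which encodes the somatic linker histone H1.2, rose. It had 72, 84 and 82 reads under the control ASO (replicates 1, 2 and 3) and 243, 153 and 156 under the LINE1 ASO, or 3.75, 3.16 and 2.93 CPM against 7.49, 4.93 and 5.73. The lowest LINE1 ASO library lay above the highest control library, and LINE1 ASO replicate 1 was the highest. The log2 fold change was 0.89 ± 0.21 (SE), a 1.85-fold increase, with an edgeR Benjamini-Hochberg adjusted p of 0.0488. This lies close to the threshold: the adjusted p was 0.0520 by edgeR with RLE factors, 0.0518 with a filter of 1 CPM, and 0.0640 to 0.188 in the 5 fits that left out any control library or LINE1 ASO replicate 1 or 3. Within replicate numbers 1, 2 and 3 the ratios of LINE1 ASO to control were 2.00, 1.56 and 1.96.

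The other H1 genes showed no call. Hist1h1d, which encodes H1.3, stood at 0.709 ± 0.252 CPM with the control ASO and 0.513 ± 0.151 with the LINE1 ASO (SD, n = 3 each), with overlapping arms. Hist1h1a, which encodes H1.1, stood at 0.444 ± 0.107 and 0.717 ± 0.297 CPM and overlapped too. Hist1h1b and Hist1h1e, added after their values were seen, had log2 fold changes of -0.51 ± 0.51 and -0.50 ± 0.30 (SE). Without Hist1h1c the other 5 H1 genes summed to 2.43 ± 0.761 CPM with the control ASO and 2.15 ± 0.351 with the LINE1 ASO (SD, n = 3 each). Hist1h1t, the H1 of the testis, had 27 reads over all 6 libraries and was not tested.

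**Figure D2:**
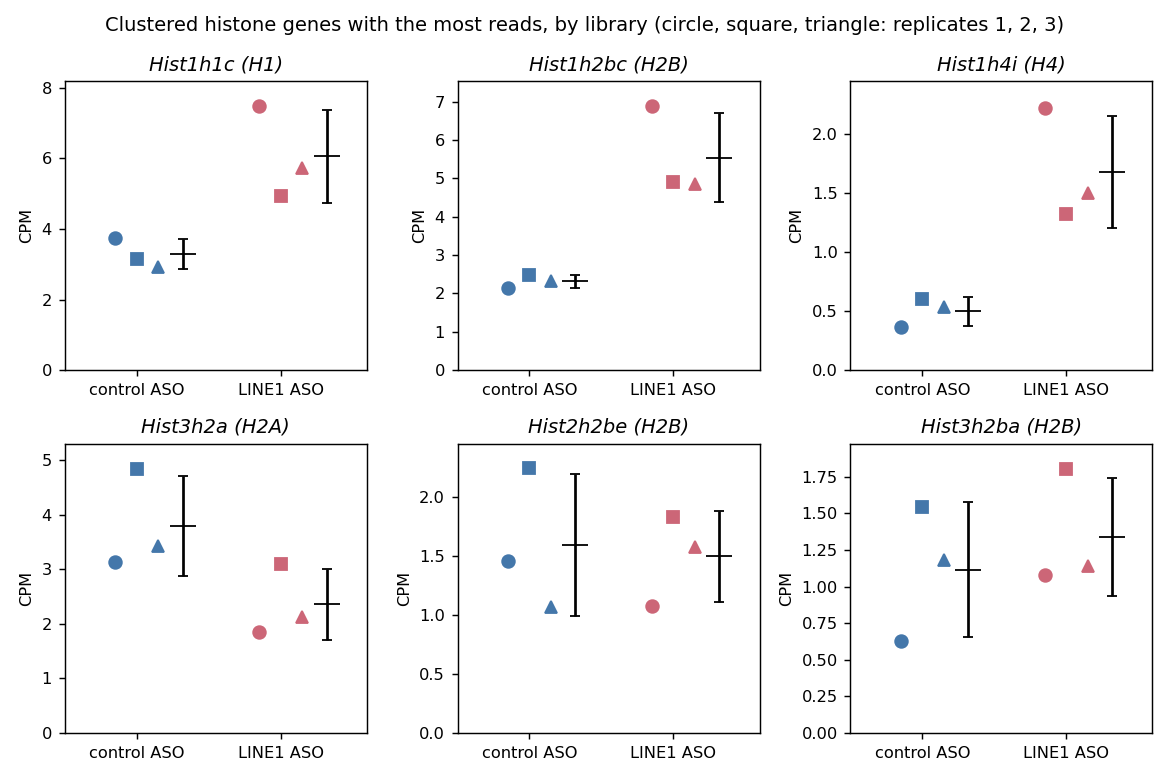
CPM in each of the 6 libraries (circle, square and triangle for replicates 1, 2 and 3) for the 6 clustered histone genes with the most reads, with the mean ± SD of each arm in black. The LINE1 ASO libraries of Hist1h1c, Hist1h2bc and Hist1h4i lie above all control libraries, those of Hist3h2a lie below, and those of Hist2h2be and Hist3h2ba overlap with the control libraries.

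Among the H2B genes Hist1h2bc rose. It had 41, 66 and 65 reads under the control ASO and 223, 152 and 132 under the LINE1 ASO. In CPM these were 2.14, 2.48 and 2.32 against 6.87, 4.90 and 4.85, with no overlap and with LINE1 ASO replicate 1 again the highest. The log2 fold change was 1.26 ± 0.20 (SE), a 2.39-fold increase, with an edgeR Benjamini-Hochberg adjusted p of 0.0156. It passed in 11 of the 13 other fits, and the same edgeR test gave an adjusted p of 0.0795 when control replicate 1 was left out and 0.0845 when control replicate 3 was. Within replicate numbers the ratios were 3.22, 1.98 and 2.09.

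The remaining H2B genes varied in direction. Hist2h2be, also known to give polyadenylated mRNA, had 1.595 ± 0.603 CPM with the control ASO and 1.498 ± 0.386 with the LINE1 ASO (SD, n = 3 each). Its log2 fold change of -0.09 ± 0.33 (SE) turned positive, to 0.24, without control replicate 2 and to 0.08 without LINE1 ASO replicate 1. Hist3h2ba stood at 1.11 ± 0.461 and 1.34 ± 0.403 CPM (SD, n = 3 each), and its arms overlapped. Hist1h2be, added after its values were seen, had 0.208, 0.338 and 0.143 CPM against 0.678, 0.548 and 0.367. Its arms did not overlap, and its log2 fold change of 1.20 ± 0.42 (SE) passed only with the replicate number as a block (adjusted p = 0.0417, against 0.146 without it, both by edgeR with Benjamini-Hochberg adjustment). The annotated transcript of Hist1h2be overlaps Hist1h1e on the same strand, so their reads may not be separable. The 16 H2B genes other than Hist1h2bc summed to 4.74 ± 1.20 CPM with the control ASO and 5.51 ± 0.548 with the LINE1 ASO (SD, n = 3 each). Hist1h2ba, the H2B of the testis, had 13 reads in all.

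Many H2A and H2B genes stand head to head and share the DNA between their starts. This was so for 22 members in 11 pairs at most 500 bases apart. The start of Hist1h2bc lies 251 bases from that of Hist1h2ac, an H2A gene chosen after its values were seen, with 15 reads with the control ASO and 38 with the LINE1 ASO. Summed over libraries, the LINE1 ASO to control ratio of CPM was 2.16 for Hist1h2ac and 2.40 for Hist1h2bc. Hist1h2ac had a log2 fold change of 1.04 ± 0.39 (SE), an edgeR Benjamini-Hochberg adjusted p of 0.165, and no control library past the filter. Hist2h2ac and Hist2h2be, 239 bases apart, had ratios of 0.739 and 0.940. Hist1h2ae and Hist1h2bg, 176 bases apart, differed in direction, with ratios of 0.848 (43 and 45 reads) and 1.985 (16 and 39 reads). Over the 11 pairs the ratios ranged from 0.591 to 2.16 for the H2A genes and from 0.159 to 2.63 for the H2B genes, most of them on few reads. Hist3h2a, with a ratio of 0.621, stands 173 bases from the pseudogene Hist3h2bb-ps, which had 1 read with the control ASO and 2 with the LINE1 ASO.

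Hist1h4i was the H4 gene that rose, and it had the largest log2 fold change of the tested members. Only 2 of its control libraries passed the filter. It had 7, 16 and 15 reads under the control ASO and 72, 41 and 41 under the LINE1 ASO, or 0.365, 0.601 and 0.536 CPM against 2.22, 1.32 and 1.51. The arms did not overlap, and LINE1 ASO replicate 1 stood highest. The log2 fold change was 1.72 ± 0.31 (SE), a 3.29-fold increase, with an edgeR Benjamini-Hochberg adjusted p of 0.0246. Adjusted p from the same edgeR test was 0.102 when control replicate 1 was left out, 0.110 for control replicate 3, 0.0737 for LINE1 ASO replicate 1 and 0.0718 for LINE1 ASO replicate 3. Within replicate numbers the ratios were 6.09, 2.20 and 2.81.

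The other tested H4 genes were Hist4h4 and Hist1h4d. Hist4h4 stood at 0.403 ± 0.0439 CPM with the control ASO and 0.519 ± 0.173 with the LINE1 ASO, and Hist1h4d at 0.350 ± 0.0886 and 0.408 ± 0.196 (SD, n = 3 each). Both had overlapping arms, and the log2 fold change of Hist1h4d turned to -0.05 without LINE1 ASO replicate 2. The 10 H4 genes other than Hist1h4i summed to 1.53 ± 0.247 and 1.90 ± 0.336 CPM.

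Of the H2A genes Hist3h2a had the most reads, and its LINE1 ASO libraries were the lower ones. Control replicates 1, 2 and 3 stood at 3.13, 4.85 and 3.43 CPM and the LINE1 ASO replicates at 1.85, 3.09 and 2.13. Replicate 2 was the highest in each arm, and the highest LINE1 ASO library lay just under the lowest control library. The log2 fold change was -0.69 ± 0.26 (SE), with an edgeR Benjamini-Hochberg adjusted p of 0.179. With the replicate number as a block it was -0.69 with adjusted p = 0.00466, and without both replicate 2 libraries, an alternative added once the data had been seen, -0.73 with adjusted p = 0.0439 (both edgeR, Benjamini-Hochberg). The block called 17.6% of all tested genes higher and 16.1% lower, and among the members 4 higher (the 3 above and Hist1h2be) and 1 lower (Hist3h2a). The annotated transcript of Hist3h2a overlaps Trim17 on the same strand and Gm44313 on the other, so its reads may include theirs.

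The rest of the H2A class showed no call. Hist1h2ae stood at 0.593 ± 0.0889 CPM with the control ASO and 0.502 ± 0.106 with the LINE1 ASO (SD, n = 3 each), with overlapping arms. Hist1h2ak had 31 reads with the control ASO and 23 with the LINE1 ASO and was not tested. Hist1h2aa, the H2A of the testis, had 9 reads in all. The 13 H2A genes other than Hist3h2a summed to 2.14 ± 0.370 and 2.07 ± 0.153 CPM.

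H3 was the class with the fewest reads, 391 in all, and had no call. Hist2h3c1 had 0.312, 0.676 and 0.286 CPM under the control ASO and 1.11, 0.451 and 0.257 under the LINE1 ASO. LINE1 ASO replicate 1 alone stood above the control range, and without it the log2 fold change went from 0.51 to -0.28. All 50-base stretches of its annotated transcript occur in other genes, so its count is uncertain. Hist1h3g, the member with a short annotated 3′ end that was tested, had 0.104, 0.225 and 0.357 CPM against 0.616, 0.387 and 0.404. Its arms did not overlap, with a log2 fold change of 0.96 ± 0.44 (SE) and an edgeR Benjamini-Hochberg adjusted p of 0.256. Hist1h3f had 53 reads in all and was not tested.

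Stretches shared with other genes limit what a single member's count means. Of the 60 members 56 shared at least 1 stretch of 50 bases with another gene in the GENCODE M21 transcripts, and 25 shared at least 50% of their stretches. The share was 8.5% for Hist1h1c, 30.1% for Hist1h2bc, 28.9% for Hist1h4i and 31.5% for Hist3h2a. For Hist1h2bc the sharing genes were other H2B genes and also many genes that are not histones, such as Neat1, Kcnq1ot1 and Zeb2. Its count may therefore be uncertain for reasons other than histone copies. How the counting treated reads that map to several places is not given in the sources used here.

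Summed by class, 4 of the 5 classes had a higher mean with the LINE1 ASO. H1 stood at 5.71 ± 1.19 CPM with the control ASO and 8.20 ± 1.15 with the LINE1 ASO, a log2 ratio of 0.52 (SD, n = 3 each). H2B stood at 7.06 ± 1.34 and 11.1 ± 0.743 CPM (log2 ratio 0.65) and H4 at 2.03 ± 0.221 and 3.58 ± 0.770 (0.82). The arms of these 3 classes did not overlap, and each holds a gene that was called. H3 stood at 2.12 ± 0.429 and 2.56 ± 0.316 CPM (0.27), with overlap. H2A was lower with the LINE1 ASO, at 5.94 ± 1.15 and 4.42 ± 0.531 CPM (log2 ratio -0.42), without overlap. No test was made on these sums.

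**Figure D3:**
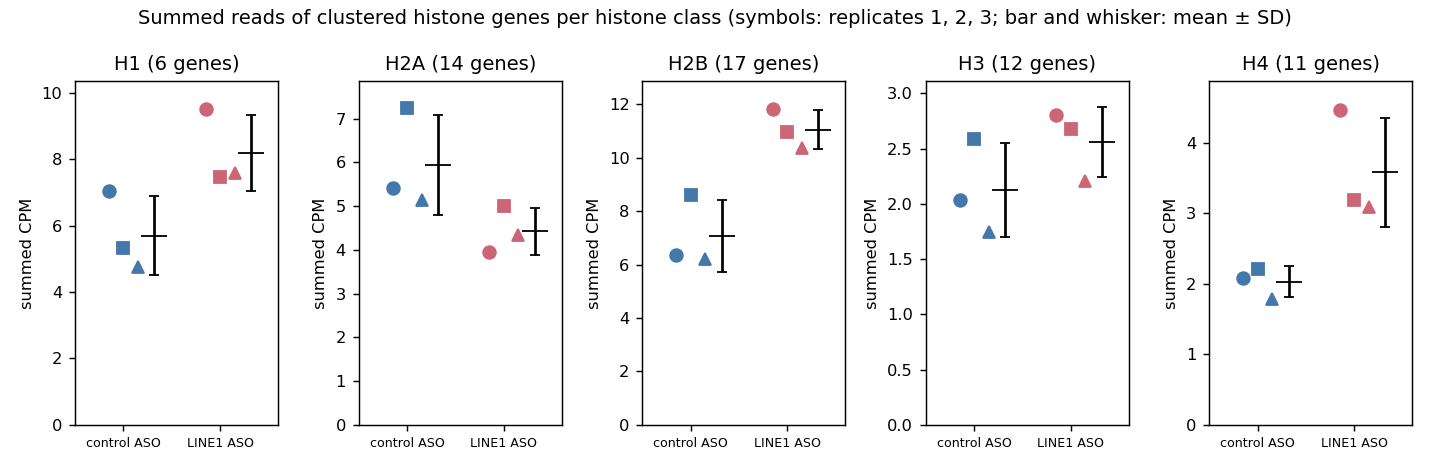
Summed CPM of all members of each histone class in the 6 libraries (circle, square and triangle for replicates 1, 2 and 3), with the mean ± SD of each arm. H1, H2B and H4 are higher with the LINE1 ASO, H2A is lower, and H3 overlaps.

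Without the 3 called genes the sum of the whole class was close in both arms, with opposite directions inside it. All 60 members summed to 22.9 ± 3.18 CPM with the control ASO and 29.8 ± 2.54 with the LINE1 ASO, a log2 ratio of 0.38. The 57 other members summed to 16.8 ± 2.95 and 16.5 ± 1.41 CPM, a ratio of 0.987 (SD, n = 3 each). Among them Hist3h2a went from a mean of 3.80 to 2.36 CPM. The LINE1 ASO to control ratio was 1.16 for H2B without Hist1h2bc, 1.24 for H4 without Hist1h4i and 1.21 for H3. It was 0.886 for H1 without Hist1h1c and 0.967 for H2A without Hist3h2a. Hist1h1c, Hist1h2bc and Hist1h4i together took 27.3%, 24.0% and 29.5% of the member reads of replicates 1, 2 and 3 of the control arm, and 50.9%, 38.1% and 43.8% of those of the other arm. They were picked by the same comparison, so this split is a description. The 43 members that the count filter left out had 1 to 58 reads each over all libraries and at most 18 in a library, and summed to 5.57 ± 1.117 and 5.91 ± 0.238 CPM. An edgeR fit with no count filter called 0 of these 43 (lowest Benjamini-Hochberg adjusted p = 0.266), and DESeq2 called 0 of the 22 to which it gave an adjusted p (lowest 0.489).

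**Figure D4:**
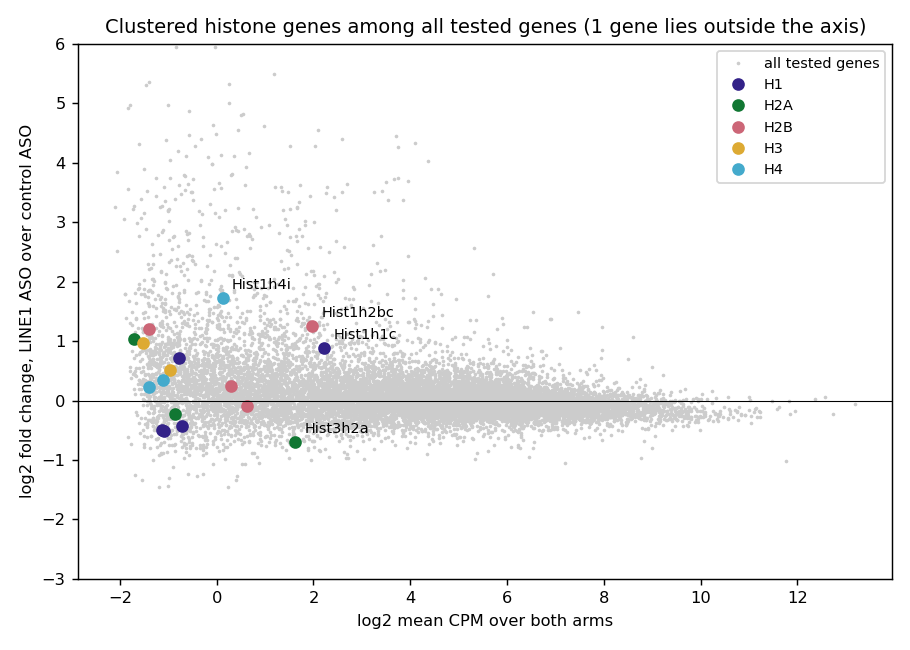
Log2 fold change of LINE1 ASO over control ASO (y axis) against log2 mean CPM (x axis) for all 14725 tested genes in grey, with the 17 tested clustered histone genes coloured by class. The members lie at the low end of abundance, where the grey points spread widest; 1 gene lies outside the plotted range.

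Promoters are shown for the members with the most reads in the H1, H4, H2A and H3 classes, among them 2 of the 3 genes that rose. RefSeq promoters (GRCm38.p6, 250 bases before to 50 after the start) matched 54 of the 60 members. The motifs searched on both strands were the TATA box TATAAA, the CCAAT box CCAAT and the octamer ATTTGCAT, the site of Oct factors known from H2B promoters. Capitals mark these motifs, and each sequence is written 5′ to 3′ on the strand of the gene.
Hist1h1c, chr13:23738557-23738856, plus strand: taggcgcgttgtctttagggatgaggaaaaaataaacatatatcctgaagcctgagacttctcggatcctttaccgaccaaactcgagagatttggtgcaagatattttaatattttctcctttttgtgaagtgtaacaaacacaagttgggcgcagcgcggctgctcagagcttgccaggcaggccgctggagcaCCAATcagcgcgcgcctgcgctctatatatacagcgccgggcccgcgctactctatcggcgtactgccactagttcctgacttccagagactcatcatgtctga
Hist1h4i, chr13:22041313-22041612, minus strand: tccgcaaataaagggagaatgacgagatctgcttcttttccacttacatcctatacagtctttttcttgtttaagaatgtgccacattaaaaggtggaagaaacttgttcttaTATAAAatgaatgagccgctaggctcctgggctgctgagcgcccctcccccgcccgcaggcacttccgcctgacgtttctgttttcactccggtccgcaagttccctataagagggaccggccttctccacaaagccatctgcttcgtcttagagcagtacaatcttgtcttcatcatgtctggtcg
Hist3h2a, chr11:58954435-58954734, plus strand: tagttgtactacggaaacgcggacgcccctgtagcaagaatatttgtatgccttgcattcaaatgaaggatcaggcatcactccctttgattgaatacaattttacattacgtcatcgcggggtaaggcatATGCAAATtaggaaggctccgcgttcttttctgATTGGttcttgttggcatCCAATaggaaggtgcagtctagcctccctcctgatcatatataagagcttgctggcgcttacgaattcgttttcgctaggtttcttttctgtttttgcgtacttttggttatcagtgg
Hist2h3c1, chr3:96246435-96246734, plus strand: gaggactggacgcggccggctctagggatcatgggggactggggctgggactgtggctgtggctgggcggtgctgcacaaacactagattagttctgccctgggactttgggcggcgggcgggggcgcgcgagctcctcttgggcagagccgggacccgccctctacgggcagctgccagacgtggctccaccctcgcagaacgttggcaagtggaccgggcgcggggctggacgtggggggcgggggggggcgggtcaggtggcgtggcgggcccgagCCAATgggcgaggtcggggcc
The 2 promoters printed from genes that rose share none of the 3 searched motifs: CCAAT begins 54 bases before the start of Hist1h1c, and TATAAA 137 bases before that of Hist1h4i. A match counts anywhere in the window, and other TATA-like letters, such as the run tatata in the Hist1h1c promoter, were not searched. Hist3h2a holds CCAAT on either strand, 86 and 68 bases before its start, and the octamer 119 bases before it.

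As a family the members' promoters held these motifs more often than promoters at large. The CCAAT box was found in 87% of the 54 and in 37.4% of all 32851 promoters in the RefSeq table. The letters TATAAA were found in 59.3% and 13.6%, and the octamer in 24.1% and 1.74%. The octamer occurred in 7 of 14 H2A and 6 of 14 H2B promoters and in 0 of those of H1, H3 and H4. The CCAAT box was present in all matched promoters of H1, H2A, H2B and H3 and in 3 of 10 of H4. Head-to-head pairs share these stretches in part, so their promoters are not separate observations.

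Genes that make, process and deposit histones were examined beside the members, from lists of known roles. Of 20 tested genes for histone transcription and 3′ end processing, 0 passed by edgeR, 0 higher and 3 lower at an unadjusted p under 0.05, and DESeq2 called 0. At that unadjusted threshold 1990 of all 14725 tested genes were higher and 1266 lower. Slbp, the stem-loop binding protein, stood at 118 ± 11.4 CPM with the control ASO and 113 ± 10.7 with the LINE1 ASO (SD, n = 3 each). Npat, the coactivator of histone genes in the histone locus body, stood at 90.7 ± 1.15 and 80.4 ± 2.16 CPM, a log2 fold change of -0.17 ± 0.06 (SE). It passed only with the replicate block (adjusted p = 0.0162, against 0.159 without it, edgeR with Benjamini-Hochberg adjustment). Hinfp, which activates H4 genes, stood at 25.2 ± 2.32 and 25.2 ± 1.52 CPM, and Casp8ap2, another protein of that body, at 105 ± 10.6 and 104 ± 9.31 CPM. With the block 1 of the 20 was higher and 5 lower, beside 17.6% and 16.1% of all tested genes.

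Of 11 tested variant histone genes, which lie outside the rule for members, 1 fell. The main fit called 1.17% of all tested genes lower. The variant that fell was H2afx, which shares 50-base stretches with clustered H2A genes, Hist1h2ae among them. H2afx, the variant phosphorylated at DNA breaks, had 235, 267 and 247 CPM under the control ASO and 137, 188 and 164 under the LINE1 ASO, with no overlap. Its log2 fold change was -0.62 ± 0.12 (SE), with an edgeR Benjamini-Hochberg adjusted p of 0.0287. Adjusted p from the same edgeR test was 0.0855 when control replicate 1 was left out, 0.108 for control replicate 3, 0.0605 for LINE1 ASO replicate 1 and 0.106 for LINE1 ASO replicate 3. H2afz, a variant found at promoters, stood at 769 ± 84.5 and 644 ± 53.1 CPM (SD, n = 3 each), with overlap. The H3.3 genes H3f3a and H3f3b stood at 297 ± 19.1 and 249 ± 13.9 CPM and at 662 ± 57.4 and 655 ± 29.5 CPM. With the replicate block 6 of the 11 were lower and 0 higher, beside 16.1% and 17.6% of all tested genes. Among the 6 were H2afz (adjusted p = 0.000967) and H3f3a (0.00108, edgeR with Benjamini-Hochberg adjustment). H3f3a was also lower by DESeq2 (adjusted p = 0.0321), and H2afz without control replicate 2 (adjusted p = 0.0336 by edgeR).

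Histone chaperones and S-phase genes gave 3 calls between them. Of 21 tested chaperone genes Ubn1, a subunit of the HIRA complex that deposits H3.3, rose by 0.41 ± 0.08 (SE) on the log2 scale, between means of 55.2 ± 4.00 and 73.5 ± 1.56 CPM (SD, n = 3 each). Of 38 S-phase genes 2 fell: Pola1, the catalytic subunit of DNA polymerase alpha, by 0.36 and Rfc4, a subunit of the clamp loader, by 0.40 on the log2 scale. Adjusted p was 0.0276 for Ubn1, 0.0325 for Pola1 and 0.0334 for Rfc4 (edgeR, Benjamini-Hochberg), and none of the 3 passed without control replicate 1 or 3 or without LINE1 ASO replicate 1 or 3. Of the 38 S-phase genes 35 had a log2 fold change below 0, as did 7219 of all 14725 tested genes. The median log2 fold change of the S-phase list was -0.14, against 0.01 for all tested genes. The lists stood at -0.17 for variants, -0.06 for transcription and processing and -0.05 for chaperones, and at 0.35 for the tested clustered histones, a median over 17 genes of which 9 missed the filter in a control library, and so not compared with the others. With the replicate block 19 S-phase genes were lower and 0 higher, and 5 of the 21 chaperone genes lower and 1 higher, where the block called 16.1% of all tested genes lower and 17.6% higher. The main fit called 4.93% of all tested genes higher, beside 1 of 21 chaperones, and 1.17% lower, beside 2 of 38 S-phase genes. With library totals in place of TMM, Pola1 and Rfc4 did not pass.

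**Figure D5:**
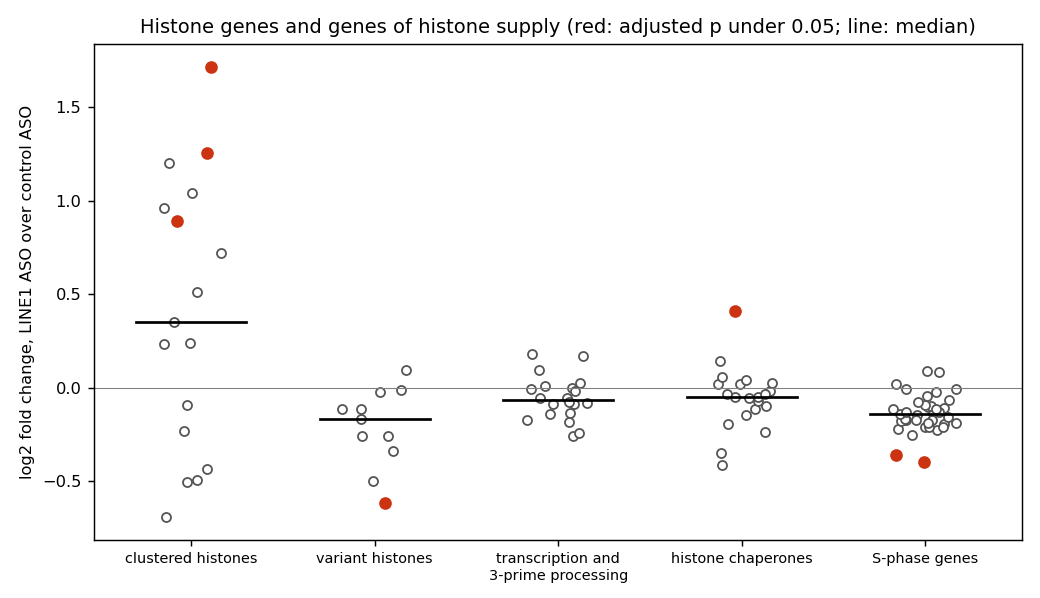
Log2 fold change of LINE1 ASO over control ASO for the tested members of 5 gene groups, 1 point per gene, red where the test was passed and with a line at the median. The 17 clustered histone genes spread from -0.69 to 1.72, while the S-phase genes lie between -0.40 and 0.09.

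Other features of the libraries moved with these results, and their part in them was not tested. Other RNAs without poly(A) tails were listed beside the members. Of 61 tested, 0 passed by edgeR, with 1 higher and 3 lower at an unadjusted p under 0.05, beside 1990 and 1266 of all 14725 tested genes. DESeq2 called 0, and the replicate block called 1 higher and 3 lower, beside 17.6% and 16.1% of all tested genes. Rn45s, the ribosomal precursor, took 0.727%, 0.371% and 0.267% of gene reads under the control ASO (replicates 1, 2 and 3) and 0.274%, 0.224% and 0.217% under the LINE1 ASO. Without Rn45s the other such RNAs summed to 83.51 to 90.5 CPM in control libraries and 65.9 to 83.48 in LINE1 ASO libraries. The highest LINE1 ASO library thus lay barely under the lowest control library. Ribosomal RNA took 16.2%, 10.1% and 6.24% of the repeat reads under the control ASO and 5.06% to 5.64% under the LINE1 ASO.

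Markers of cell states differed between the arms as well. Of 12 listed markers of 2-cell-like cells, a rare state of stem cell cultures that resembles the 2-cell embryo, 11 were in the table and tested, and all 11 rose, from a sum of 12.3 to 14.7 CPM in control libraries to 132 to 327 in LINE1 ASO libraries. LINE1 ASO replicate 1 was the highest by this sum, as it was for Hist1h1c, Hist1h2bc and Hist1h4i. All 12 embryonic stem cell markers were detected, summing to 6072 to 6703 CPM in control and 4501 to 5551 CPM in LINE1 ASO libraries, and 1 of them, Pou5f1, fell. All 12 had a log2 fold change below 0, DESeq2 called 3 lower, and the replicate block called 10 lower. For all 14725 tested genes, the main fit called 4.93% higher and 1.17% lower, and the replicate block 17.6% higher and 16.1% lower. Of those genes 7219 had a log2 fold change below 0, and at an unadjusted p under 0.05 by edgeR 1990 were higher and 1266 lower. DESeq2 called 585 of all genes lower. Of 8 tested primitive endoderm markers Pdgfra rose and Lama1 fell (2 higher and 3 lower with the replicate block), with sums of 290 to 322 and 216 to 264 CPM over the 10 listed. Of 7 tested fibroblast markers 0 passed by edgeR (1 higher and 0 lower at an unadjusted p under 0.05) and 0 by DESeq2, while the replicate block called 1 higher and 2 lower. Their sums were 49.6 to 76.1 and 44.6 to 64.8 CPM over the 10 listed, with Lum and Dcn under 0.1 CPM in the mean of each arm.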

How the data were processed

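Per the labels' protocols, a strand-keeping mRNA kit was used on 1 ug of RNA per sample. The values are raw counts of reads for each gene symbol and each repeat name, as the authors left them. The submitters' processing notes name the mm9 build, R 3.3.0, DESeq2 1.12.3, HTSeq 0.6.1p1 and TopHat2 2.0.9. Not given in the sources used here are the annotation release, the strand setting and the handling of multiply mapped reads, which bears on these near-identical genes.

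Libraries held 19954026 to 31704616 gene-assigned reads. The deposited counts were fitted unchanged with edgeR 4.0.16 under R 4.3.3: filterByExpr on the arms (minimum count 10, minimum total 15), TMM factors, robust quasi-likelihood F tests, and Benjamini-Hochberg adjustment over all 14725 genes kept. Calls needed an adjusted p under 0.05 and no set fold. SE is the log2 fold change over the square root of F. Separate cultures are not stated for the replicates, so the spread behind each p-value is that between these samples and may be technical. Replicates of an arm differed beyond sampling noise (chi-square per degree of freedom 9.01 to 37.8). On simulated data of this design the test recovered 60 of 99 genes changed 2-fold and 96 of 99 changed 4-fold. These were among 14597 genes, and 6 of 14399 unchanged ones were called. The changed genes were drawn at random from all tested genes, with no shared effect of replicate number. This does not give the recovery for the members, most of which had few reads.

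Both arms number replicates 1 to 3. Deviations from arm means of log2(CPM + 0.5) correlated at 0.522, 0.723 and 0.503 within numbers and from -0.570 to 0.251 between numbers. No label says what a number shares. The main fit held the arm only, so its p-values leave this pairing out. Libraries of 1 number were treated as pairs only in the replicate block and in the ratios within replicate numbers, on the evidence of these correlations. Control libraries had TMM factors of 0.962 to 0.991, and LINE1 ASO libraries of 1.02 to 1.04.

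Results were recomputed with library totals, RLE factors, DESeq2 1.42.0, no filter, a filter of 1 CPM, the replicate block and each library left out, with both replicate 2 libraries left out as an addition made after seeing the data. Transcripts were read from GENCODE M21 and promoters from RefSeq, both on GRCm38, and no coordinate was converted. The genes named are the 3 members with the highest mean CPM per class, every called member, testis and polyadenylated members, a panel (Slbp, Npat, Hinfp, Casp8ap2, H2afx, H2afz, H3f3a, H3f3b) and up to 4 called genes of each other list. Members, lists and this rule were chosen with earlier results of these data known.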

Additional observations from a re-analysis of the deposited data

How the results depend on the processing

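Hist1h1c, Hist1h2bc, Hist1h4i and Hist3h2a kept their direction under all 13 alternatives tried, with log2 fold changes of 0.69 to 1.00, 1.05 to 1.39, 1.44 to 2.01 and -0.98 to -0.50. Hist1h1c passed in 6 of them, Hist1h2bc in 11, Hist1h4i in 9 and Hist3h2a in 2. Depth limits the rest: the count filter left out 43 of 60 members, 0 of which were called with no filter or by DESeq2. No member call held without control replicate 1 or without control replicate 3. For what follows the cause was not tested beyond the lower number of libraries where some are left out. With 1 library left out, members called higher ranged from 0 to 3, all genes called higher from 158 to 1041 and all genes called lower from 2 to 479. Called variant histones ranged from 0 to 2, transcription and processing genes from 0 to 1, chaperones from 0 to 3 and S-phase genes from 0 to 3. With the replicate block 2591 genes were higher and 2373 lower, against 726 and 173, and 1 member was lower. The block called 6 variant histones, 6 transcription and processing genes, 6 chaperones and 19 S-phase genes. Among the genes named by the rule it changed the call of Hist3h2a, Npat, H2afz and H3f3a and of no other, and outside the rule that of Hist1h2be. Without both replicate 2 libraries 1810 genes were higher and 1229 lower, with 1 member lower, 3 variant histones, 2 transcription and processing genes, 4 chaperones and 8 S-phase genes called. DESeq2 called 585 of all genes lower, 2 variant histones and 3 chaperones. Library totals called 50 genes lower and 0 S-phase genes. RLE factors, no filter and the 1 CPM filter each called 2 chaperones. Directions near 0 turned. With 1 library left out the log2 fold change ranged from -0.35 to 0.24 for Hist2h2be, -0.0751 to 0.510 for Hist3h2ba, -0.28 to 1.02 for Hist2h3c1, -0.0526 to 0.541 for Hist1h4d, -0.0734 to 0.0511 for Hinfp, -0.112 to 0.0261 for Casp8ap2 and -0.107 to 0.0051 for H3f3b. Hist2h2be stood at 0.0821 without both replicate 2 libraries. With library totals Slbp stood at 0.0301, Casp8ap2 at 0.0735 and H3f3b at 0.0683. Hinfp stood at -0.0297 by DESeq2, -0.0188 with RLE factors, -0.0309 with no filter and -0.0105 with the 1 CPM filter. The median of all tested genes was 0.09 with library totals and 0.01 with TMM. The class sums kept their direction under the alternatives run for them, and their ratios within replicate numbers, averaged as a replicate block, were 0.53 for H1, -0.41 for H2A, 0.66 for H2B, 0.28 for H3 and 0.81 for H4.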
